A study of Homo sapiens with 35 samples.

Results

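CLU encodes clusterin, an extracellular chaperone. It was followed through 7 days of sampling in RPMI-8226 multiple myeloma cells, before and after a short pulse of the proteasome inhibitor carfilzomib. CLU was chosen from the readout itself, because its protein-coding entry had the largest fitted rise from day 0 to day 1 among entries above a minimum level. It is therefore 1 gene of the 56816 gene symbols in the count table, and all of its entries were taken: the table lists estimated counts per gene symbol and transcript biotype, and CLU has 2 entries, protein-coding and retained-intron. The libraries came from cells collected on day 0, before carfilzomib, and on days 1, 2, 4, 6, 8 and 10 after 750 nM carfilzomib for 1 h, followed by washing and culture in medium without the drug. The labels list the carfilzomib treatment for the day 0 libraries too, while the study's methods place day 0 before the pulse. There were 5 libraries per day, each from a subculture, and 35 in total. RPMI-8226 is a human myeloma cell line, so every value comes from 1 line, and there was no untreated culture carried to the later days. The subcultures were split from a single expanded culture and were fewer than the libraries, so at least some were sampled on several days, and the labels do not say which. By the study's methods, the spread between them therefore covers culture, library and sequencing, and not separate experiments. Some of its figure legends instead describe the RNA sequencing values as means over 5 independent experiments. The labels do not settle which description holds.

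Clusterin is made in the secretory pathway, cleaved into a pair of chains held together by disulfide bonds, and released into body fluids, where it binds misfolded proteins and hinders the assembly of the terminal complement complex. Cells take up clusterin and its cargo through receptors of the LDL receptor family. A smaller amount stays in or returns to the cytosol under stress, where clusterin has been described to bind BAX and Ku70. The CLU promoter holds a heat shock-like element, and CLU is a known stress-responsive gene in many cell types. A proteasome inhibitor such as carfilzomib blocks the degradation of ubiquitinated proteins, a process on which antibody-secreting plasma cells and their malignant counterparts lean heavily.

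CLU (ENSG00000120885.22) lies on the minus strand of chromosome 8, at 27596917 to 27614700 in GRCh38 (GENCODE v44). That annotation lists 14 protein-coding and 3 retained-intron transcripts of CLU, and the authors counted against an older release. The 3 retained-intron transcripts are 594, 718 and 2807 bases long, and 87.7%, 44.9% and 59.2% of their bases lie in exons of protein-coding CLU transcripts. Reads from those shared bases can be assigned to either entry, so the 2 entries' estimates are not independent. One further annotated gene overlaps CLU, the microRNA gene MIR6843 on the same strand, which is listed at 0 counts in all 35 libraries. No sequence of the locus is shown here.

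The libraries held 6519392 to 10962890 estimated counts (median 7643975), and levels below are CPM, that is, estimated counts per 1000000 protein-coding counts of the library after TMM scaling, with factors between 0.929 and 1.08. The plasma cell and myeloma genes SDC1, TNFRSF17, IRF4, XBP1, PRDM1, CD38, MAF and IGLC2 had counts in every library. The macrophage marker FCGR3A and the stromal marker LUM were at 0 in all 35 libraries. Libraries at 0 numbered 28 for LYZ, 7 for CD14 and 2 for CSF1R among the other macrophage markers. Among the other stromal markers they numbered 33 for COL3A1, 14 for DCN, 4 for PDGFRB and 2 each for COL1A1 and COL1A2. The T cell markers CD3D and CD2 were at 0 in 32 libraries each, but CD3E had counts in every library (0.441 to 4.81 CPM). The summed level of the 8 plasma cell and myeloma markers was 26909 CPM on day 0 and 13627 CPM on day 1, the lowest of the 7 days. Most of that sum was IGLC2, an immunoglobulin light chain gene, at 23501 CPM on day 0 and 11067 CPM on day 1, and the other 7 markers summed to 3408 and 2560.45 CPM. The part of such shifts in the CLU values was not tested. The 3 epithelial markers were expressed, with day means of 366 to 514 CPM in sum (442 on day 0 and 448 on day 1). The 5 monocyte and macrophage markers summed to day means of 81.3 to 135 CPM, nearly all from CD68, the 3 T cell markers to 1.05 to 3.76 CPM and the 6 stromal markers to 0.832 to 2.84 CPM.

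Before the pulse, CLU was close to the lower end of what the libraries could measure. The 5 day 0 libraries held 16, 13, 8, 3 and 20 protein-coding CLU counts, or 2.25, 2.06, 1.43, 0.601 and 3.85 CPM (mean 2.04 ± 1.20, SD, n = 5). On day 1 the libraries held 4234, 4223, 3887, 4046 and 3930 counts, or 622, 665, 658, 694 and 664 CPM (661 ± 25.5). All 5 day 1 libraries stood far above all 5 day 0 libraries, at 324 times the day 0 mean. CLU went from 0.000194% to 0.0679% of the protein-coding counts. These are the values that chose the gene, so they are a description and no test is given. In the same fit the log2 fold change was 8.32 (SE 0.15), and the next transcripts in that order were LGALS9C at 6.20 (SE 0.59), DEFB4A at 6.00, B4GALNT1 at 5.83 and LGALS9B at 5.59. LGALS9C and LGALS9B are near-identical copies, and DEFB4A has a near-identical copy as well, so their counts may be divided uncertainly. In bulk libraries such as these, more or fewer cells that express a gene and more or less of its RNA per cell cannot be told apart.

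The protein-coding entry then fell on every sampled day. The day 2 libraries stood at 321, 331, 283, 275 and 304 CPM (303 ± 23.9), and the day 4 libraries at 109, 90.0, 103, 98.9 and 95.8 CPM (99.3 ± 7.11). On day 6 the values were 37.0, 38.1, 42.1, 33.9 and 33.6 CPM (36.9 ± 3.48). On day 8 they were 11.9, 18.3, 14.6, 10.2 and 21.1 CPM (15.2 ± 4.49), and on day 10 they were 7.56, 7.67, 4.52, 5.96 and 5.13 CPM (6.17 ± 1.42). No 2 neighbouring days overlapped. As a share of the day 1 level, 45.8% was left after 2 days, 15.0% after 4, 5.59% after 6, 2.30% after 8 and 0.934% after 10. The lowest day 10 library (4.52 CPM) was above the highest day 0 library (3.85 CPM), with the day 10 mean at 3.03 times the day 0 mean. Both are descriptions with no test, since the choice of CLU by its rise over day 0 favours a gene with low day 0 values.

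**Figure D1:**
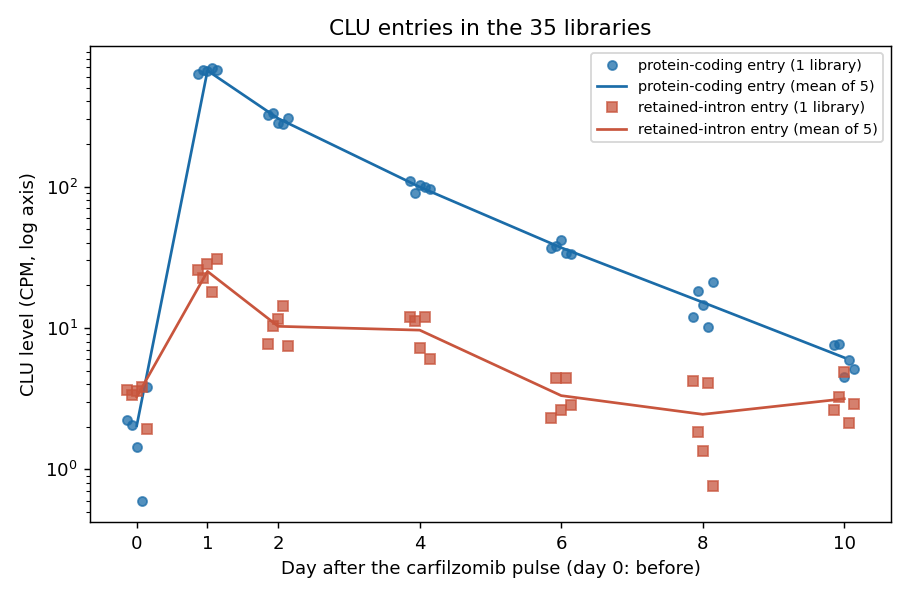
CLU level in each of the 35 libraries, in CPM on a log axis, against the day after the pulse, with circles for the protein-coding entry, squares for the retained-intron entry and lines through the means of the 5 libraries of each day (points of a day are spread sideways). The protein-coding entry rose from 2.04 to 661 CPM and fell to 6.17 CPM by day 10, while the retained-intron entry moved between 2.45 and 25.1 CPM.

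Ranked per kilobase of transcript among the 16733 protein-coding entries with an annotated length, CLU was in place 9368 before the pulse and in places 118, 253, 814, 2307, 4568 and 7130 at the 6 later times in turn. CLU thus went from the middle of the ranking into its uppermost part and most of the way back. The lengths are medians over the protein-coding transcripts of each gene, 764 bases for CLU, whose longest protein-coding transcript has 2749 bases, so the ranks are approximate.

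The changes between days 2, 4, 6, 8 and 10 rest on libraries outside the day 0 to day 1 rise by which CLU was chosen. They were tested with edgeR's quasi-likelihood test over 17999 protein-coding entries with Benjamini-Hochberg adjustment (called at Q ≤ 0.05). A gene chosen for a large rise is nonetheless favoured to fall afterwards, which the tests do not allow for. From day 2 to day 4, CLU fell 3.05-fold (log2 change −1.61, SE 0.09, Q = 2.29e-17), a step at which 16.7% of the entries were lower. From day 4 to day 6 it fell 2.69-fold (−1.43, SE 0.10, Q = 4.37e-13), where 5.98% of the entries were lower. From day 6 to day 8 it fell 2.44-fold (−1.29, SE 0.13, Q = 2.47e-09), the step with the fewest falling entries, at 1.53%. From day 8 to day 10 it again fell 2.44-fold (−1.29, SE 0.17, Q = 5.38e-07), where 4.97% of the entries were lower. In each of the 4 steps all 5 later libraries were below all 5 earlier ones.

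CLU was the only one of the 17999 entries that fell at all 4 of these steps at Q ≤ 0.05, a count chosen after the values were seen. Consecutive steps share the libraries of the day between them, so the 4 tests are not independent. Over the whole span from day 2 to day 10, CLU fell 48.9-fold (log2 change −5.61, SE 0.13, Q = 5.07e-31), and 18.8% of the entries were lower. That fall ranked 1 of 3385 by size. CLU was chosen for the largest day 1 rise and still stood at 149 times the day 0 mean on day 2. That choice favours both this rank and a fall at every step, so neither is independent of how CLU was chosen. Within the single steps other transcripts fell further: CLU ranked 64 of the 3013 falls from day 2 to day 4, 17 of 1076 from day 4 to day 6, 6 of 275 from day 6 to day 8, and 45 of 894 from day 8 to day 10.

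Expressed as the time in which the level would fall by 50%, the 4 steps from day 2 correspond to 1.24, 1.40, 1.55 and 1.55 days, and the interval from day 1 to day 2 to 0.889 days. The last of these values uses day 1 and is a description. The change from day 8 to day 10 was smaller in size than that from day 2 to day 4 by 0.32 on the log2 scale (SE 0.20, 95% confidence interval −0.09 to 0.73), which did not pass the test (Q = 0.272, edgeR's quasi-likelihood test, a comparison chosen after the values were seen). For that comparison 26.1% of all entries passed. With the 2 entries summed, the same difference was 0.60 (SE 0.13) and passed (Q = 0.000133, edgeR). Whether this difference passed therefore depended on which CLU entries were counted. All these values use the whole level, without subtracting the day 0 mean (2.04 CPM protein-coding, 5.30 CPM summed). A level that nears such a baseline falls more slowly on the log2 scale. Whether the part above day 0 declined more slowly was not tested.

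**Figure D2:**
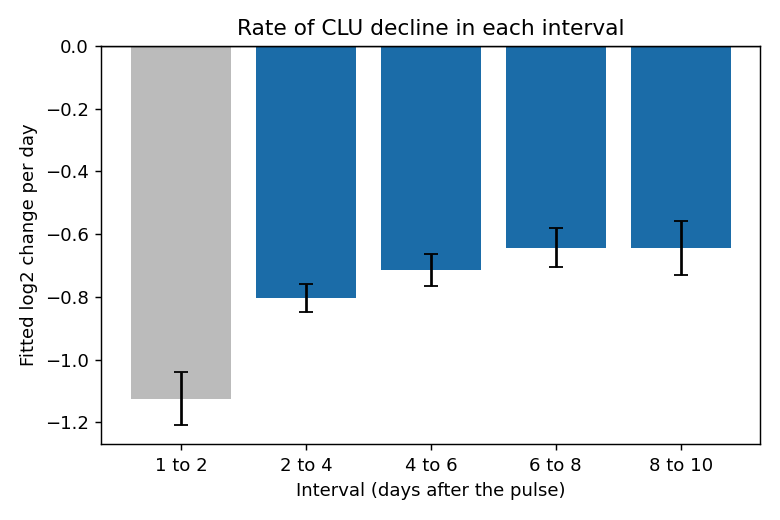
Fitted log2 change per day of the protein-coding CLU entry in each interval between sampled days, with bars for the estimate and error bars for its standard error. The 4 blue bars (days 2 to 10) rest on libraries outside the rise by which CLU was chosen. The grey bar (day 1 to 2, −1.12 per day) is a description because it uses day 1.

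The retained-intron entry moved far less. Its 5 day 0 libraries held 26, 21, 20, 19 and 10 counts (3.26 ± 0.766 CPM, n = 5), more than the protein-coding entry in 4 of the 5 libraries. On day 1 they held 175, 144, 168, 105 and 182 counts (25.1 ± 5.0 CPM), 7.71 times the day 0 mean. The means were 10.3 ± 2.82 CPM on day 2 and 9.65 ± 2.82 CPM on day 4. They were 3.32 ± 1.01 on day 6, 2.45 ± 1.59 on day 8 and 3.16 ± 1.03 on day 10, all with ranges that overlapped the day 0 range of 1.93 to 3.81 CPM. Retained-intron entries of all genes together took a mean of 7.15% of all counts on day 0 and 5.05% on day 1, so the class as a whole took a smaller share on the day on which this entry was highest.

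The share of CLU counts in the protein-coding entry followed from these levels. On day 0 the 5 libraries stood at 38.1%, 38.2%, 28.6%, 13.6% and 66.7% (37.0% ± 19.4), and on day 1 all lay between 95.6% and 97.5% (96.3% ± 0.762). The day means from day 2 onward were, in order, 96.7% ± 1.09, 91.2% ± 2.42, 91.7% ± 2.57, 84.8% ± 11.4 and 66.0% ± 10.7. From day 2 to day 4 the share fell by 5.50 percentage points (two-sided exact permutation test, p = 0.00794, adjusted p = 0.0198 over 5 comparisons), with all 5 later libraries below all 5 earlier ones. From day 2 to day 10 it fell by 30.7 points (exact permutation test, p = 0.00794, adjusted p = 0.0198). The smallest p that 5 against 5 libraries allow is 0.00794. Paired by replicate number, the share was lower in 5 of 5 pairs in both comparisons (exact permutation within pairs, p = 0.0625, adjusted p = 0.156), where 0.0625 is the smallest p that 5 pairs allow, so a paired test could not pass. The 3 remaining comparisons did not pass: a difference of 0.539 points from day 4 to day 6 (exact permutation p = 0.778), −6.91 points from day 6 to day 8 (exact permutation p = 0.317) and −18.8 points from day 8 to day 10 (exact permutation p = 0.0397, adjusted p = 0.0661).

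**Figure D3:**
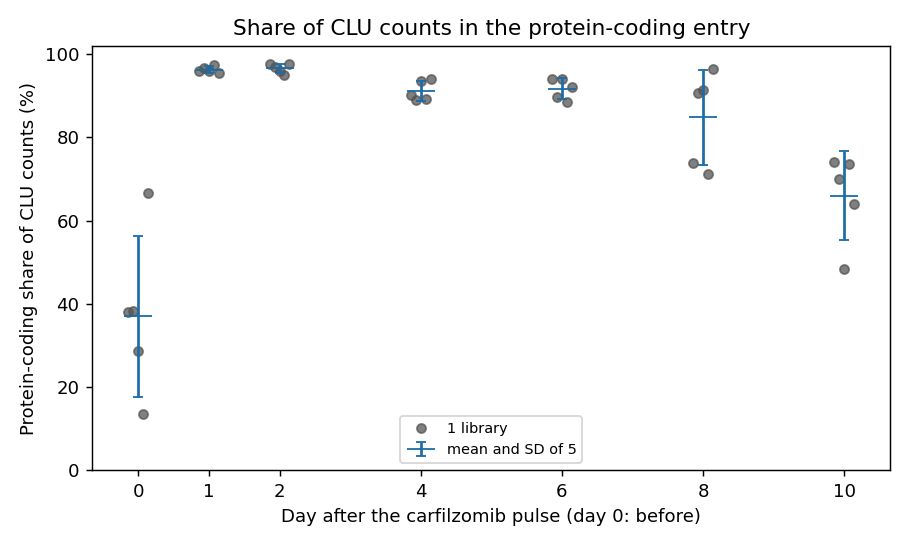
Share of CLU counts assigned to the protein-coding entry, in percent, in each library (grey points) against the day after the pulse, with the mean and SD of the 5 libraries of each day in blue. The share lay at 95.1% to 97.6% in every library of days 1 and 2 and spread from 13.6% to 66.7% on day 0.

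Where counts were few, the 2 entries varied in opposite directions between libraries. On day 0, replicate 4 held 3 protein-coding and 19 retained-intron counts, and replicate 5 held 20 and 10. On day 8, replicates 1 and 4 held 68 and 72 protein-coding counts with 24 and 29 retained-intron counts, while replicate 5 held 110 with 4. The sum of the entries was steadier, at 5.30 ± 0.609 CPM on day 0 and 17.6 ± 3.19 CPM on day 8. Summed, CLU stood at 686 ± 23.4 CPM on day 1, 313 ± 22.1 CPM on day 2, 109 ± 7.98 CPM on day 4, 40.3 ± 3.33 CPM on day 6 and 9.33 ± 1.28 CPM on day 10. The day 1 mean was then 129 times the day 0 mean instead of 324 times, and the day 10 mean was 1.76 times the day 0 mean instead of 3.03 times. The summed day 10 range (8.02 to 10.9 CPM) lay above the summed day 0 range (4.41 to 5.91 CPM), again as a description.

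To set CLU beside the genes it is linked with, 6 lists were drawn up. These are heat shock factors and mainly cytosolic chaperones, other secreted chaperones, clusterin receptors, terminal complement, intracellular partners, and transcription factors described at the CLU promoter. They hold 50 genes, of which 44 had a count in at least 1 library and were tested. On day 1, 24 of the 44 were higher and 9 lower, and 11 did not pass, at a background of 25.4% of entries higher and 27.3% lower. Of the 24 higher members, 16 were in the heat shock list of 17 genes. The median log2 changes of the other lists on day 1 lay between −0.72 and 0.29, beside 1.54 for the heat shock list. The pooled count therefore does not describe the lists alike. On day 10, 11 were higher, 6 lower and 27 did not pass, with 16.1% of entries higher and 15.8% lower. The median log2 change of the 44 was 0.35 on day 1 and 0 on day 10, beside −0.06 and −0.02 over all 17999 entries. Without day 0 replicate 3, the count of members higher on day 10 was 7 instead of 11.

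Of the 17 heat shock genes, 16 were higher on day 1 and 1 was lower, with a median log2 change of 1.54. Over all entries, 25.4% were higher and 27.3% lower on that day. HSF1, the main heat shock transcription factor, moved little (134 ± 6.27 to 150 ± 8.65 CPM, log2 change 0.16, SE 0.06, Q = 0.0134 in edgeR). HSF2 rose from 7.61 ± 1.79 to 15.1 ± 1.26 CPM (0.99, SE 0.16). The inducible Hsp70 gene HSPA1A rose from 9.35 ± 1.55 to 94.2 ± 13.8 CPM (3.34, SE 0.16), and its near-identical neighbour HSPA1B from 168 ± 23.7 to 244 ± 19.0 CPM (0.54, SE 0.09). Reads of that pair can be assigned to either gene, so the division between them is uncertain. CRYAB, counted among the 16, rose by 2.31 on the log2 scale (SE 0.92, Q = 0.0337, edgeR). It had only 38 counts in all 35 libraries. HSPB1, a small heat shock protein, rose by 2.11, the Hsp90 cochaperone CHORDC1 by 2.07, the inducible Hsp90 gene HSP90AA1 by 1.97, the Hsp70 cochaperone BAG3 by 1.73 and the constitutive Hsp70 gene HSPA8 by 1.68 on the log2 scale. DNAJB1, an Hsp40 cochaperone usually counted among HSF1 targets, fell from 104 ± 5.43 to 71.7 ± 4.23 CPM (−0.53, SE 0.07, Q = 4.07e-09). By day 10, 4 of the 17 were higher than on day 0, 3 lower and 10 did not pass, with a median of 0.05. Over all entries, 16.1% were higher and 15.8% lower on day 10, so these counts do not set the list apart. The count of 4 higher genes became 2 when any one of day 0 replicates 1, 2 or 3 or day 10 replicates 2 or 5 was left out. CHORDC1 was then still 1.31 above day 0 on the log2 scale (SE 0.10), and DNAJB1 was still lower (−0.63, SE 0.07).

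**Figure D4:**
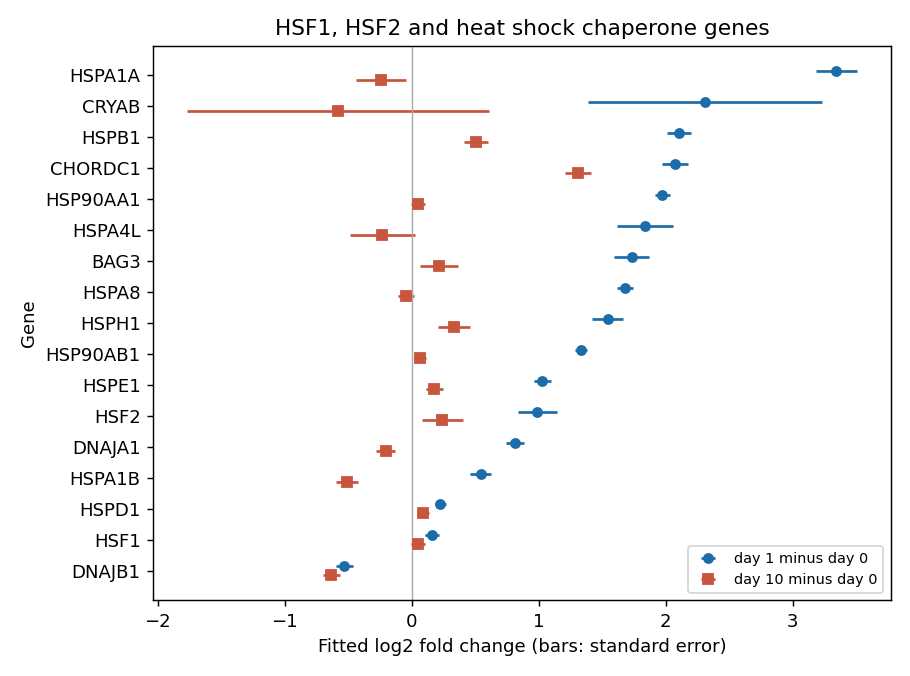
Fitted log2 fold change against day 0 of the 17 heat shock genes, on day 1 (blue circles) and day 10 (red squares), with bars for the standard error. All except DNAJB1 lie right of 0 on day 1, led by HSPA1A at 3.34, and most day 10 values lie near 0.

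Among the 8 other secreted chaperones, 6 had a count and were tested. None of the 6 passed as higher on day 1 or day 10, and 1 was lower on day 1. Over all entries, 25.4% were higher and 27.3% lower on day 1, and 16.1% were higher on day 10. So few genes with so few counts cannot be set apart from those shares. PZP and APCS had no count, and A2M, HP, TTR and ALB had 1 to 4 counts in all 35 libraries together. CLUL1, the clusterin-like paralog, had 36 counts in all and a log2 change of −1.43 on day 1 that did not pass (SE 1.13, Q = 0.305, edgeR). APOE, a lipid carrier that also binds receptors of the LDL family, fell from 1.21 ± 0.195 to 0.126 ± 0.132 CPM on day 1 (log2 change −3.06, SE 0.69, Q = 0.000226). APOE was at 0.649 ± 0.318 CPM on day 10, which did not pass the test against day 0 (Q = 0.247, edgeR). With at most a few counts per library, the genes of this list could not be followed closely at this depth.

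The receptors moved in both directions. Of 5 tested, 2 were higher and 1 lower on day 1, where 25.4% of all entries were higher and 27.3% lower. LRP1, a large endocytic receptor, rose from 4.61 ± 1.00 to 13.5 ± 1.58 CPM (log2 change 1.55, SE 0.22) and stood at 1.70 ± 0.549 CPM on day 2. LRP8, the apolipoprotein E receptor 2, rose from 65.3 ± 6.75 to 147 ± 12.9 CPM (1.17, SE 0.11) and was still 0.44 above day 0 on the log2 scale on day 10 (SE 0.11, Q = 0.00167 in edgeR). LRP2, megalin, fell from 1.99 ± 0.555 to 0.491 ± 0.213 CPM (−1.99, SE 0.40). TREM2 had no count. PLXNA4, a plexin, did not pass on day 1 (0.16, SE 0.16, Q = 0.425 in edgeR) and passed as higher on day 10 (0.40, SE 0.16, Q = 0.0464). Between those days its means were far higher, at 29.1, 22.6, 25.7 and 40.6 CPM on days 2, 4, 6 and 8, against 5.78 CPM on day 0. On day 10, 2 of the 5 receptors were higher, where 16.1% of all entries were. That count was 1 when some single libraries of day 0 (replicates 1, 4 or 5) or day 10 (replicates 3 or 5) were left out.

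The components of terminal complement were low throughout. C6, C8A and C8B had no count, C9 had 3 and C7 had 23 counts in all libraries. C8G fell from 3.45 ± 1.21 to 0.906 ± 0.160 CPM on day 1 (log2 change −1.92, SE 0.32) and C5 from 6.59 ± 1.68 to 1.83 ± 0.630 CPM (−1.83, SE 0.27). CD59, the membrane inhibitor of the terminal complex, rose from 67.4 ± 7.62 to 146 ± 5.38 CPM (1.11, SE 0.07) and was at 109 ± 10.1 CPM on day 10 (0.69 above day 0, SE 0.07). In this list of 6 tested genes, 1 was higher and 2 lower on day 1, and 1 was higher on day 10. Of all entries, 25.4% were higher and 27.3% lower on day 1, and 16.1% were higher on day 10.

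Of the 4 intracellular partners, XRCC6 (Ku70) rose from 376 ± 29.4 to 951 ± 39.2 CPM on day 1 (log2 change 1.34, SE 0.05) and COMMD1, a regulator of NF-κB, by 0.96 (SE 0.16). HSPA5 (BiP), the Hsp70 of the endoplasmic reticulum, fell from 2540 ± 170 to 1337 ± 57.1 CPM (−0.93, SE 0.05) and remained lower on day 10 (−0.62, SE 0.05). BAX, a pro-apoptotic BCL2 family member, stood at 24.5 ± 3.61 CPM on day 0 and 18.8 ± 4.75 CPM on day 1 and did not pass (−0.38, SE 0.17, Q = 0.0567, edgeR). The count of partners lower on day 1 was 1, where 27.3% of all entries were lower. It was 2, with BAX as the second, under DESeq2 and several other settings. The same held without day 0 replicate 2 or day 1 replicate 4.

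Of the 8 transcription factors, which include HSF1 and HSF2, 5 were higher and 3 lower on day 1. Over all entries 25.4% were higher and 27.3% lower. The largest move was that of EGR1, an immediate early factor, from 19.1 ± 2.91 to 0.528 ± 0.419 CPM (log2 change −5.15, SE 0.36, Q = 3.89e-16), and it was still 1.74 below day 0 on day 10 (log2 change −1.74, SE 0.25). RELA fell by 0.22 (log2 change −0.22, SE 0.07). MYBL2 rose by 0.64 (SE 0.10), YBX1 by 0.45 (SE 0.05) and NFKB1 by 0.24 (SE 0.06).

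The 7 protein-coding genes within 250 kb of CLU moved in both directions. On day 1, 2 were higher, 3 lower and 2 did not pass, where 25.4% of all entries were higher and 27.3% lower. A count over 7 genes cannot be set apart from those shares. The nearest, SCARA3 (19168 bases away), and CHRNA2 had 5 and 9 counts in all libraries. PTK2B, a focal adhesion family kinase, fell from 178 ± 6.68 to 92.3 ± 7.24 CPM (log2 change −0.94, SE 0.05). CCDC25 fell by 0.56 (log2 change −0.56, SE 0.13). EPHX2, which encodes soluble epoxide hydrolase and lies 51353 bases from CLU, fell from 9.08 ± 1.57 to 3.49 ± 0.435 CPM in its protein-coding entry (−1.37, SE 0.22), but was higher on day 1 when all its entries were summed (0.68, SE 0.12). ESCO2, a cohesin acetyltransferase, rose from 1.84 ± 0.490 to 5.76 ± 1.65 CPM (1.63, SE 0.23), and PBK, a mitotic kinase, by 0.55 (SE 0.16). ESCO2 and PBK were higher still on day 2, at 20.3 ± 1.62 and 37.0 ± 1.17 CPM, when CLU was already falling.

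By Pearson's r of log2 CPM over the 35 libraries, the 10 entries most like CLU among 12339 compared were led by PFKP (0.945), FAM129B (0.941), BSCL2 (0.938), CDK14 (0.937), PKM (0.934) and GYS1 (0.928), and included ADK (0.927), PRDX2 (0.926) and MGAT5 (0.925). PFKP and PKM are glycolytic enzymes, GYS1 is muscle glycogen synthase, BSCL2 is seipin, ADK is adenosine kinase, PRDX2 is a peroxiredoxin and MGAT5 branches N-glycans. In all, 32 entries had r above 0.9. These coefficients describe a shared rise and fall over the 7 days and share the same libraries and depth. The changes of these 10 entries were much smaller, with rises of 0.91 to 2.22 on the log2 CPM scale on day 1 beside 8.31 for CLU. BSCL2 rose most, from 57.7 ± 5.85 to 270 ± 21.9 CPM. By Spearman's rho, 5 of the 10 stayed among the first 10, and by Pearson's r over the 7 day means none did, with ZNF799 (0.990) and RUVBL2 (0.988) leading. Of the heat shock genes, HSPA8 was the most like CLU (r = 0.916, place 18). HSPA1A, which was back at 14.2 ± 2.80 CPM on day 2, had r = 0.665 and DNAJB1 had r = −0.26.

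**Figure D5:**
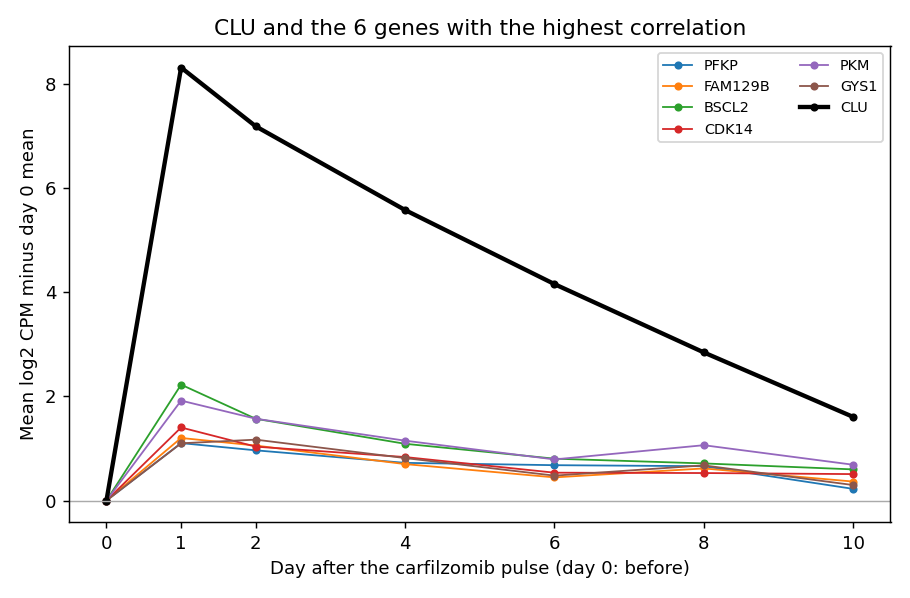
Mean log2 CPM of each day minus that of day 0, for CLU (black) and the 6 entries with the highest Pearson's r with it over the 35 libraries (colours), against the day after the pulse. CLU reached 8.31 on day 1 and 1.60 on day 10, while the 6 others stayed between 1.10 and 2.22 on day 1.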

How the data were processed

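The authors sequenced RNA of RPMI-8226 cells from 35 libraries (7 days, 5 subcultures each), prepared with a directional kit, estimated transcript abundances with kallisto 0.44.0 against GENCODE transcripts of GRCh38.p12 with a GC bias adjustment, and summarised them with tximport with a length adjustment. The strand setting of kallisto was not given in the sources used here. They deposited estimated counts as whole numbers per gene symbol and transcript biotype (84647 entries). The estimated counts were used as deposited.

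From these, 17999 protein-coding entries with at least 1 count were fitted with edgeR 4.0.16 (R 4.3.3; TMM, quasi-likelihood test, day as a factor, all 35 libraries), with SE taken as the log2 change divided by the square root of F. DESeq2 1.42.0 was an alternative. Shares were tested by exact permutation (scipy 1.17.1). Fits were checked on simulated data. Alternatives were other scalings, a filter on low counts, all or summed biotypes, the libraries of the compared days only, a replicate block, and leaving out each library. The gene, the lists and the tests were chosen with earlier results of these data known. Named genes were CLU, defining members of each list and those with its largest rise and fall, the 10 entries most correlated with CLU, the genes next below it on day 1 and its neighbours within 250 kb. LRP8, PLXNA4, C5, COMMD1, BAX, ZNF799, RUVBL2 and further list members were named after their values were seen. Some genes that this rule covers are not reported here. Lengths and coordinates come from GENCODE v44.

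Total counts per library ranged from 6519392 to 10962890, and 0 pairs of libraries had identical values. The day 0 level of CLU rests on 3 to 20 counts per library. P-values measure only the spread between subcultures, which by the study's methods came from a single culture. The study's methods name fewer subcultures than there are libraries, so at least some must have been sampled on more than 1 day. The labels do not tie libraries to subcultures, so the tests treat libraries of different days as independent.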

Additional observations from a re-analysis of the deposited data

Results flagged for a closer look

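The retained-intron CPM of CLU in day 0 replicate 5 was 1.93, apart from the other 4 libraries of that day (day 0 median 3.57 CPM), with a gap of 0.748 of the day's range by Dixon's criterion. The same library had the highest protein-coding CLU level of day 0 (3.85 CPM), and the summed level of both entries on day 0 lay between 4.41 and 5.91 CPM. It was the only such value among 21 groups of 5 libraries checked, and chance alone gives about 1 in 20.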

How the results depend on the processing

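The 5 tested CLU changes kept their direction and call in all 90 alternative values. Leaving out 1 library gave log2 changes of −1.64 to −1.54 (day 2 to 4), −1.48 to −1.39 (day 4 to 6), −1.40 to −1.15 (day 6 to 8), −1.41 to −1.17 (day 8 to 10) and −5.71 to −5.52 (day 2 to 10). With biotypes summed, the day 8 to 10 change was −0.95 (SE 0.11). CLU was the only entry to fall at all 4 steps under each of the 8 other settings and with each of 25 libraries left out. The rate difference stayed short of the threshold with any library left out (0.16 to 0.41) and passed with biotypes summed (0.596, Q = 0.000133, edgeR), a fit whose prior degrees of freedom were estimated as infinite. The log2 ratio of CLU means to day 0 on days 1, 2 and 4 was 8.45, 7.34 and 5.71 by library size alone. With biotypes summed it was 7.02, 5.89, 4.36, 2.93, 1.73 and 0.82 on days 1 to 10. These ratios were lower because retained-intron counts made up the largest share of CLU counts on day 0. EPHX2 turned from −1.37 to 0.68 with biotypes summed, since further entries were added. The share change from day 4 to day 6 ranged from −0.069 to 1.34 points with a library left out. The number of list members higher on day 10 fell from 11 to 7 without day 0 replicate 3 and was 7 to 11 over all left-out libraries (cause not tested). Heat shock genes higher on day 10 went from 4 to 2 without day 0 replicates 1, 2 or 3 or day 10 replicates 2 or 5, and receptors from 2 to 1 under several settings. Entries called from day 6 to day 8 numbered 461, against 129 with all biotypes, 240 with the libraries of both days alone, 738 with DESeq2 and 829 with biotypes summed. From day 4 to day 6 they were 2172 against 1154 with all biotypes, and from day 8 to day 10 they were 1809 against 789. Whether replicate numbers mark the same subculture is not given. Same-numbered libraries of different days correlated at −0.121 to 0.136 in their deviations from the day means, and a value above 0.1 in every pair was required, so the numbers were not taken as pairs, although 14 of 35 libraries correlated best with their own number, where 7 would if all numbers were equally likely. With a replicate block the CLU changes were −1.61, −1.43, −1.29, −1.28 and −5.61, all called, and the rate difference was 0.321 (Q = 0.292). Share changes of −5.50 (day 2 to 4) and −30.7 points (day 2 to 10) did not pass when paired by number (adjusted p = 0.156 from exact permutation), which 5 pairs cannot do. Depth limits the day 0 level, which rests on 60 protein-coding counts in all.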
